A study of Homo sapiens with 6 samples.

Results

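The 10 genes described here are the stress-inducible inhibitors and the core regulators of mTOR complex 1 (mTORC1), namely the sestrins SESN1, SESN2 and SESN3, DDIT4, the tuberous sclerosis genes TSC1 and TSC2, and the complex genes MTOR, RPTOR, AKT1S1 and DEPTOR. They were chosen by symbol among the 23228 genes counted in 6 RNA-seq libraries, and all 10 were present. The libraries came from HEC-1-A, a human endometrial adenocarcinoma cell line, with 3 control libraries and 3 libraries from cells that received SMIP34, an inhibitor of the nucleolar coactivator PELP1, at 20 µM for 24 h. All 6 shared the same McCoy's 5A medium with serum, and the control labels name only that medium while the methods of the study name a vehicle. Neither source says whether the 3 libraries of a group came from separate cultures, so the p-values measure the spread between these libraries, which may be technical. A single line was used at a single dose and time.

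mTORC1 is a kinase complex that promotes protein synthesis and cell growth when amino acids, growth factors and energy are sufficient. MTOR is its kinase and RPTOR the scaffold that brings substrates to it, while AKT1S1 (also called PRAS40) and DEPTOR are subunits that restrain the kinase. The TSC1 and TSC2 proteins switch off RHEB, the small GTPase that activates the kinase on the lysosome, and DDIT4 (REDD1) favours this brake under hypoxia and other stress. Sestrins bind GATOR2 and thereby keep the Rag GTPases from recruiting mTORC1, and SESN2 is released from GATOR2 when it binds leucine. In endometrial carcinoma, mutations of PI3K genes often act on this pathway.

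Each library held from 19562711 to 22014835 counts on genes. Levels are given as CPM (counts scaled to a library of 1e+06 counts, with TMM factors), and groups were compared by edgeR's quasi-likelihood test, from which all adjusted p-values come unless another tool is named, with Benjamini-Hochberg adjustment over the 13408 genes that passed a filter on low counts. The 6 epithelial markers KRT8, KRT18, KRT19, EPCAM, CDH1 and PAX8 each had a mean level of 212 CPM or more, and their sum was 3211 to 3311 CPM in control and 3050 to 3059 CPM in SMIP34 libraries. Of the marker lists of other cell types, that of fibroblasts or stroma (5 genes, LUM at 0) summed to 3.63 to 4.38 CPM in control and 4.65 to 5.04 CPM in SMIP34 libraries, that of leukocytes (5 genes, CD3E at 0) to 0.818 to 1.44 and 0.878 to 1.80 CPM, and that of endothelium (4 genes) to 0.322 to 0.876 and 0.137 to 0.277 CPM. The part of these shifts in the results was not tested. In bulk RNA, fewer cells with a transcript and less of it per cell cannot be told apart.

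Of the 10 genes, 9 passed the filter and 6 of these differed between the groups at an adjusted p-value under 0.05, a rule that called 34.6% of all genes tested. TSC1 and MTOR rose with SMIP34 (background for calls in this direction, 17.4%), and SESN2, AKT1S1, DEPTOR and RPTOR fell (17.2%). Only DEPTOR, with a decrease to 0.642 of the control level, also passed an absolute log2 fold change of 0.5, which together with the adjusted p-value called 3.31% of genes (1.44% higher and 1.87% lower). SESN2, at -0.488, lay just short of this limit. It went past the limit with upper quartile factors (-0.502), with gene length offsets (-0.504), without control replicate 1 (-0.526) and without SMIP34 replicate 1 (-0.511). SESN1, DDIT4 and TSC2 did not pass the test, and SESN3 had too few counts to be tested. The groups did not overlap in CPM for 7 of the 9 genes, against 44.5% of all genes tested.

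**Figure D1:**
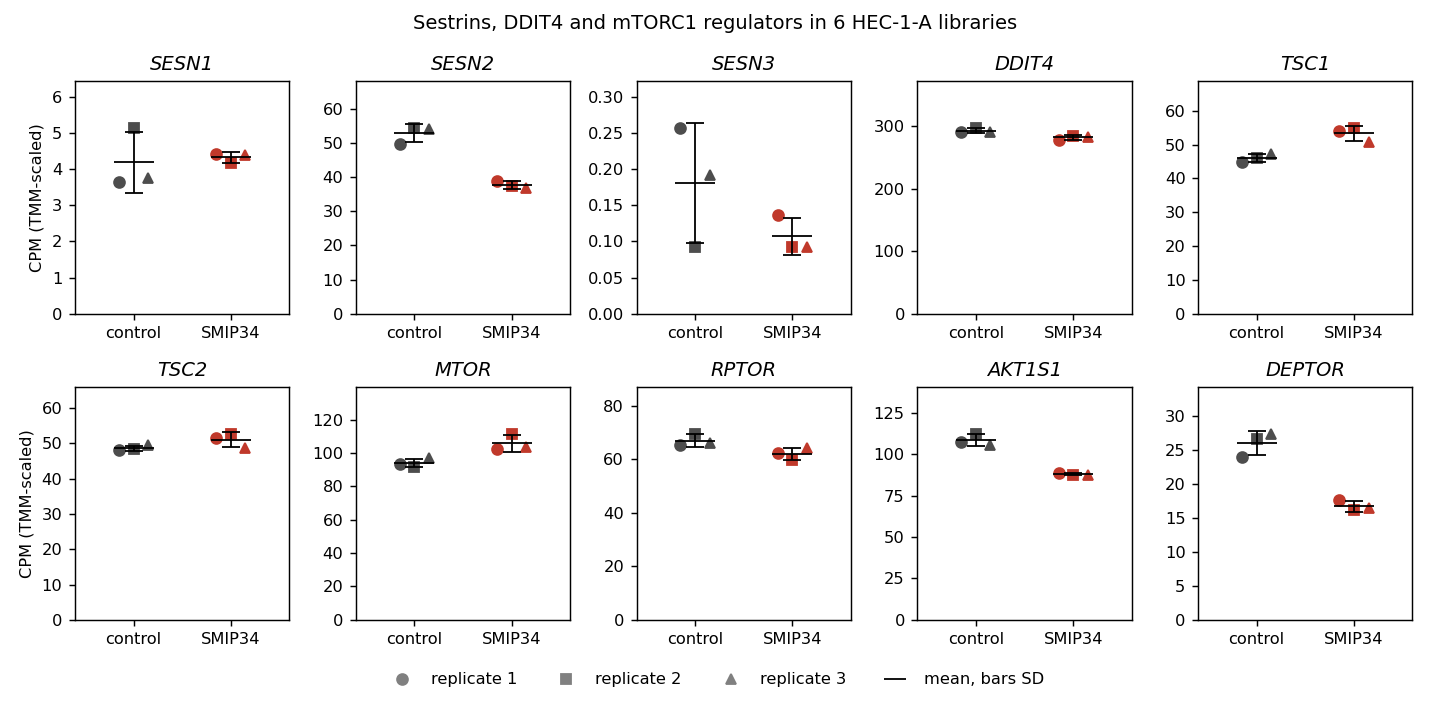
Level of each of the 10 genes (CPM, TMM-scaled; each panel has its own axis from 0) in 3 control and 3 SMIP34 libraries; symbols mark replicate numbers, horizontal lines the mean and bars the SD (n = 3). DEPTOR, SESN2 and AKT1S1 were lower in each SMIP34 library than in each control library, while SESN1, SESN3 and TSC2 overlapped between the groups.

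The sestrins differed widely in level. SESN2 (chromosome 1 of hg19, from 28585963 to 28609002, plus strand) was at 49.9, 54.6 and 54.2 CPM in control replicates 1, 2 and 3 and at 38.9, 37.5 and 36.7 CPM in SMIP34 replicates 1, 2 and 3. Each treated library thus lay below each control library, by more than either group spread. The means were 52.9 ± 2.62 CPM in control and 37.7 ± 1.10 CPM in SMIP34-treated cells (SD, n = 3 each). The log2 fold change was -0.49 (SE 0.049, edgeR adjusted p = 1.44e-08) or -28.7% (95% interval from -33.5 to -23.6%). The call held in all 19 alternative fits, with log2 fold changes between -0.53 and -0.46. Of all genes tested, 94.2% had a smaller absolute log2 fold change.

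SESN1 (chromosome 6, from 109307640 to 109415708, minus strand), a stress-inducible sestrin, was at 3.66, 5.15 and 3.75 CPM in the control libraries and at 4.42, 4.16 and 4.39 CPM in the SMIP34 libraries. The treated values lay inside the control range. Its log2 fold change was 0.04, with a 95% interval from -0.28 to 0.35, so that at 71 to 112 counts a library a change of the size seen for SESN2 would have fallen outside the interval. The sign was negative without control replicate 1 (-0.045), without control replicate 3 (-0.038) and with gene length and GC offsets.

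SESN3 (chromosome 11, from 94906133 to 94964246, minus strand), a sestrin known to be induced by FOXO factors, had 5, 2 and 4 counts in the control libraries and 3, 2 and 2 counts in the SMIP34 libraries. The summed counts of 11 and 7 correspond to 0.176 CPM (exact Poisson 95% interval 0.0880 to 0.316) and 0.108 CPM (0.0434 to 0.223) without TMM factors. Their ratio of 0.612 had an exact 95% interval from 0.201 to 1.73, which covers counting error only, and no difference was detectable at this depth.

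Levels between genes were compared as CPM per kb of exon. SESN2 made up 92.6, 91.4 and 93.1% of the summed sestrin level per kb in the control libraries and 89.6, 89.9 and 89.2% in the SMIP34 libraries, and SESN1 made up 6.60, 8.38 and 6.27% and then 9.88, 9.68 and 10.4%. The SESN2 share was lower and the SESN1 share higher in each treated library. The summed level of the 3 sestrins was 16.2 ± 0.862 CPM per kb in control and 11.9 ± 0.336 CPM per kb in SMIP34-treated cells (SD, n = 3 each), nearly all of it from SESN2. Within libraries, the log2 ratio of SESN2 to SESN1 per kb went from 3.72 ± 0.237 in control to 3.17 ± 0.055 in treated cells (SD, n = 3 each; exact permutation test, two-sided, p = 0.1, the smallest that 3 against 3 libraries allow). This ratio does not depend on how libraries are scaled.

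DDIT4 (chromosome 10, from 74033677 to 74035797, plus strand) had by far the highest level of the 10 genes. It was at 290, 298 and 291 CPM in the control libraries and at 278, 285 and 283 CPM in the SMIP34 libraries, without overlap between the groups. The difference was small, with means of 293 ± 4.33 and 282 ± 3.55 CPM (SD, n = 3 each), which is a log2 difference of -0.05 (SE 0.027, edgeR adjusted p = 0.125) or -3.73% (95% interval from -7.40 to 0.0991%). A decrease of the size of that of SESN2 lies outside this interval. The sign was positive with gene length and GC offsets (0.03, adjusted p = 0.371), a fit that also removes each library's trend with gene length and base composition. DDIT4L, the paralog of DDIT4, had 0 counts in all 6 libraries, with an exact Poisson 95% upper bound of 0.0591 CPM for control and 0.0569 CPM for SMIP34.

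The upstream sequences of SESN2 and DDIT4 are shown because these stress-inducible inhibitors share inducers such as ATF4, yet only SESN2 passed the test. RefSeq promoter entries on GRCh38.p14 were found for 8 of the 10 genes, and the 250 bases before the annotated start are printed 5′ to 3′ on the gene's strand, chr1:28259268-28259517 (plus) for SESN2 and chr10:72273674-72273923 (plus) for DDIT4. Capitals mark CCAAT on either strand (ATTGG when read on the printed strand) and ACGTG, a form of the core of the hypoxia response element. The form GCGTG was not searched for and is not marked.
SESN2: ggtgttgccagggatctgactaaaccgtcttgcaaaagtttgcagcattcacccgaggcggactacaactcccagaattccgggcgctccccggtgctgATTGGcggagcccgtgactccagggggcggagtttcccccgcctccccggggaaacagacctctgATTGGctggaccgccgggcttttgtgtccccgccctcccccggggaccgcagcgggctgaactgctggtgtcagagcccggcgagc
DDIT4: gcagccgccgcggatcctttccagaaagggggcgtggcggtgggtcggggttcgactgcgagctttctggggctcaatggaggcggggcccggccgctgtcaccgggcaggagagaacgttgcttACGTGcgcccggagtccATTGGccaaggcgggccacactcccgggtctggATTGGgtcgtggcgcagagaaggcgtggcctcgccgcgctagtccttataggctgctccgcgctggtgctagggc
SESN2 holds CCAAT on the opposite strand 151 and 86 bases before the start, and DDIT4 does so 108 and 75 bases before it. CCAAT occurs in 32.0% of the 35116 upstream windows of the same length, and the other promoters with a match among the 8 genes were those of MTOR and SESN1. ACGTG occurs in 18.5% of windows. In DDIT4 it lies 125 bases before the start, and of the other 7 genes only TSC2 holds it. In TSC2 it lies within CACGTG, which occurs in 6.34% of windows. TGATGNAA, the core of the element bound by ATF4 with C/EBP partners, is in 3.14% of windows and in neither of the sequences printed. Among the 8 genes only TSC2 holds it. These matches describe the letters of this window only.

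The TSC genes are the GTPase-activating brake on RHEB. TSC1 (chromosome 9, from 135766735 to 135820020, minus strand), which stabilises TSC2, was at 44.8, 46.1 and 47.2 CPM in the control libraries and at 54.1, 55.1 and 50.9 CPM in the SMIP34 libraries. Each treated library lay above each control library. The log2 fold change was 0.21 (SE 0.046, edgeR adjusted p = 0.000702), an increase of 15.9% (95% interval from 8.54 to 23.7%).

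TSC2 (chromosome 16, from 2097990 to 2138713, plus strand), which carries the GTPase-activating domain, was at 48.2, 48.3 and 49.4 CPM in control and at 51.7, 52.8 and 48.6 CPM in treated libraries. The groups overlapped, and the log2 fold change of 0.07 had a 95% interval from -0.02 to 0.16 (adjusted p = 0.259). The log2 ratio of TSC1 to TSC2 per kb was -0.69 ± 0.022 in control and -0.55 ± 0.0030 in treated cells (SD, n = 3 each; exact permutation test, two-sided, p = 0.1). The ratio was thus higher in each treated library, although the test could not reach the threshold with 3 against 3. TSC1 has more exon than TSC2 (8616 and 5632 bases), so this ratio also holds the trend with exon length given below. With gene length and GC offsets, the log2 fold changes were 0.11 for TSC1 and 0.05 for TSC2.

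MTOR (chromosome 1, from 11166588 to 11322608, minus strand), the kinase itself, was at 93.4, 91.7 and 96.7 CPM in the control libraries and at 102, 112 and 104 CPM in the SMIP34 libraries. The groups did not overlap, and the log2 fold change was 0.17 (SE 0.038, edgeR adjusted p = 0.000859), an increase of 12.7% (95% interval from 6.75 to 19.0%). RPTOR (chromosome 17, from 78518625 to 78940173, plus strand), its scaffold, was at 65.1, 69.5 and 66.1 CPM in control and at 62.3, 59.7 and 64.2 CPM in treated libraries. Its log2 fold change of -0.11 (SE 0.042, edgeR adjusted p = 0.0455) was close to the threshold. The call for RPTOR was lost in 7 of 19 alternative fits. It was lost with DESeq2 (adjusted p = 0.116), and in edgeR with library size as the only scaling (0.0979), without the filter (0.0662) and with the replicate number as a block (0.0627). The call was also lost without control replicate 2 (0.216), without SMIP34 replicate 1 (0.0929) and without SMIP34 replicate 2 (0.208). Over all 19 alternative fits the adjusted p lay between 0.000762 and 0.216.

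The subunits that restrain the kinase both fell. AKT1S1 (chromosome 19, from 50372297 to 50380644, minus strand), an AKT substrate that occupies the substrate-binding site of RPTOR, was at 107, 112 and 106 CPM in the control libraries and at 88.7, 87.5 and 87.8 CPM in the SMIP34 libraries. The treated values lay within a narrow range well below all controls. The means were 108 ± 3.48 and 88.0 ± 0.607 CPM (SD, n = 3 each), which is a log2 difference of -0.30 (SE 0.036, edgeR adjusted p = 2.23e-07) or -18.9% (95% interval from -22.9 to -14.7%).

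DEPTOR (chromosome 8, from 120885900 to 121063157, plus strand), which binds MTOR directly, was at 23.9, 26.6 and 27.3 CPM in the control libraries and at 17.6, 16.1 and 16.4 CPM in the SMIP34 libraries. The gap between the groups was wider than the spread of either. The means were 25.9 ± 1.80 and 16.7 ± 0.799 CPM (SD, n = 3 each), which is a log2 difference of -0.64 (SE 0.070, edgeR adjusted p = 6.74e-08) or -35.8% (95% interval from -41.8 to -29.1%). Among all genes tested, 1.67% had a lower log2 fold change. The calls for AKT1S1 and DEPTOR held in all 19 alternative fits, with log2 fold changes from -0.32 to -0.25 and from -0.69 to -0.60.

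**Figure D2:**
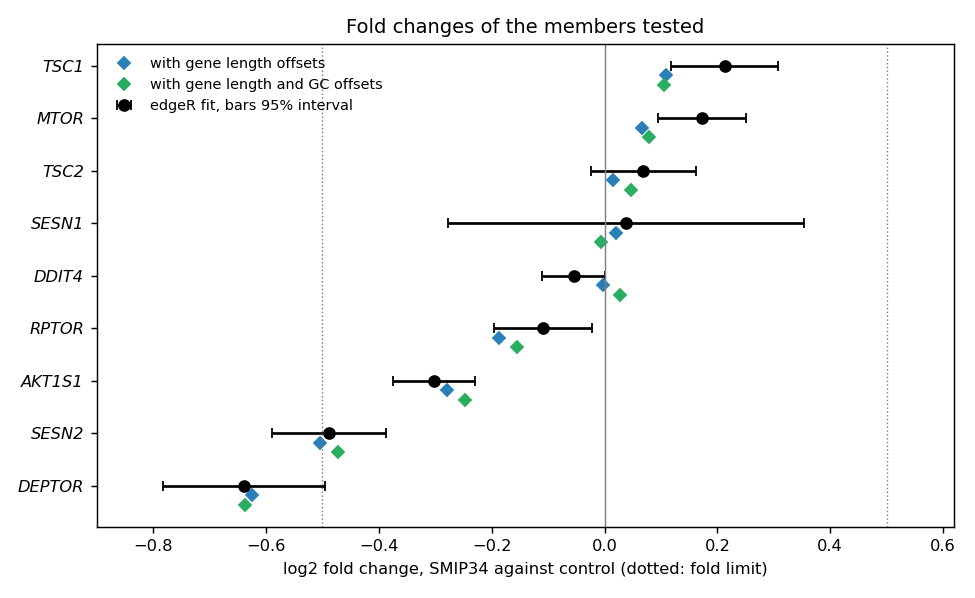
Log2 fold change (SMIP34 against control) of the 9 genes tested, with 95% intervals of the edgeR fit in black and the values with gene length offsets (blue) and gene length and GC offsets (green); dotted lines mark an absolute log2 fold change of 0.5. DEPTOR, SESN2 and AKT1S1 kept their distance from 0 with the offsets, while TSC1 went from 0.21 to 0.11 and MTOR from 0.17 to 0.07 and 0.08.

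Fold changes moved with exon length across all genes. When the genes tested were split into 10 equal bins by exon length, the median difference (log2) was -0.10 in the bin of the shortest and 0.12 in that of the longest. MTOR and TSC1, with 8725 and 8616 bases of exon, belong to the longest bin, and RPTOR and TSC2 to the next, where the median was 0.05. With gene length offsets, which take out the trend within each library, MTOR (0.07, adjusted p = 0.144) and TSC1 (0.11, adjusted p = 0.0566) no longer passed the test. RPTOR moved further from 0 with the same offsets, to -0.19 (adjusted p = 0.000762). DEPTOR, SESN2 and AKT1S1 lie in bins whose medians were -0.01, 0.01 and -0.03. DDIT4, at -0.05, differed from the median of its bin, -0.06, by less than its SE.

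**Figure D3:**
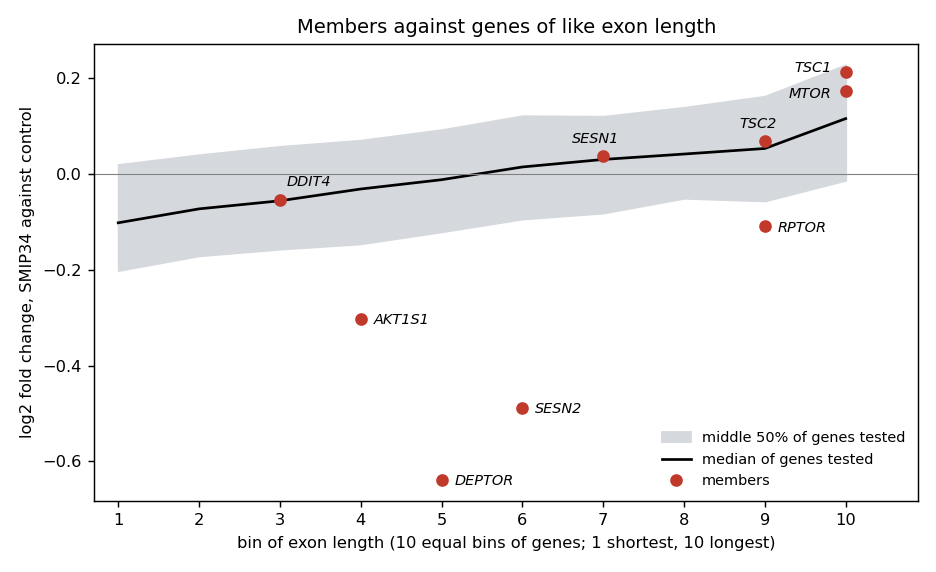
Log2 fold change of the 9 genes tested (red) against the bin of exon length to which each belongs, with the median (line) and the middle 50% (shaded) of all genes tested in that bin. TSC1, MTOR, TSC2, SESN1 and DDIT4 lay within the shaded range, and DEPTOR, SESN2, AKT1S1 and RPTOR lay below it.

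Within the complex, the other subunits were set against MTOR. Per kb of exon, MTOR was at 10.8 ± 0.295 in control and 12.1 ± 0.570 CPM per kb in treated cells, RPTOR at 9.76 ± 0.336 and 9.05 ± 0.327, AKT1S1 at 44.5 ± 1.43 and 36.1 ± 0.249, and DEPTOR at 9.86 ± 0.685 and 6.34 ± 0.304 (SD, n = 3 each). Thus DEPTOR and MTOR had similar levels per kb in control cells, and DEPTOR lay below MTOR after SMIP34. The ratio of DEPTOR to MTOR went from 0.915 to 0.523, that of AKT1S1 to MTOR from 4.13 to 2.98 and that of RPTOR to MTOR from 0.907 to 0.747, as geometric means of 3 libraries. In each of these ratios all treated libraries were below all controls (exact permutation test, two-sided, p = 0.1 for each, over 7 ratios tested). RPTOR, AKT1S1 and DEPTOR have less exon than MTOR (6856, 2440 and 2631 against 8725 bases), so these ratios also hold the trend with length. RPTOR lies in the bin of exon length next to that of MTOR, with bin medians of 0.05 and 0.12.

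**Figure D4:**
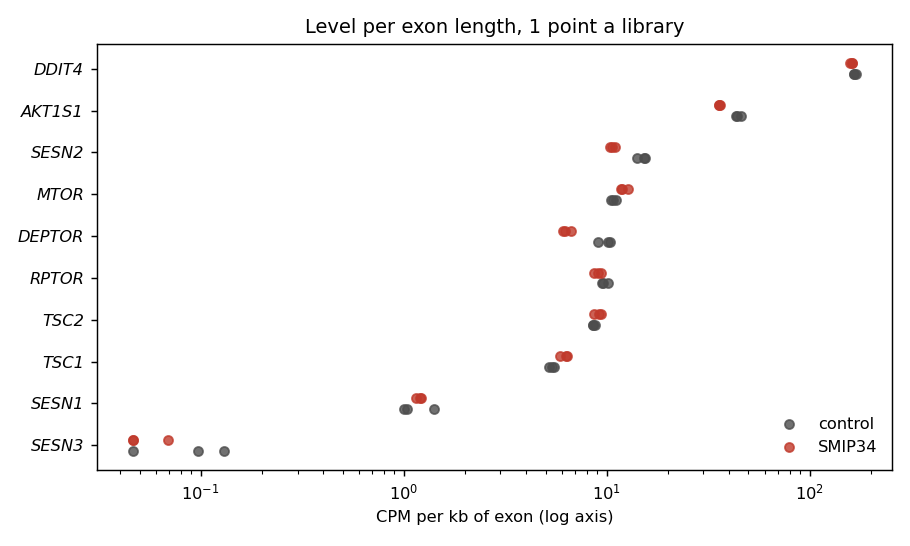
Level of the 10 genes in CPM per kb of exon on a log axis, with 1 point for each control (grey) and SMIP34 (red) library. DDIT4 lay highest at 167 CPM per kb in control and SESN3 lowest at 0.0909, and MTOR, RPTOR, DEPTOR and TSC2 lay close together.

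In order of level per kb in control cells, DDIT4 (167 ± 2.47) was followed by AKT1S1, SESN2, MTOR, DEPTOR, RPTOR, TSC2 (8.64 ± 0.117), TSC1 (5.34 ± 0.139), SESN1 (1.15 ± 0.230) and SESN3 (0.0909 ± 0.0420). DEPTOR and RPTOR did not differ beyond their spread, and MTOR stood above DEPTOR by little more than the spread of DEPTOR. In SMIP34-treated cells MTOR stood above SESN2 (10.7 ± 0.311) and DEPTOR below TSC2 (9.06 ± 0.380).

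The other genes of mTORC1 control were taken from 10 lists, which hold 89 genes beside the 10 described above. Of these 89, 86 were tested, 16 rose and 14 fell at an adjusted p-value under 0.05 (34.9%, against 34.6% of all genes), and their median log2 fold change was -0.0058, against -0.0022 over all genes tested. The split moved with the scaling, with 9 higher and 19 lower with gene length offsets, 22 higher and 10 lower with library size alone, and 14 higher and 22 lower with upper quartile factors. Only NUPR1 among them passed the fold limit of 0.5. The counts of each list include any of the 10 genes that the list holds. They stand against 17.4% of all genes tested called higher and 17.2% called lower.

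In the list of mTOR complex subunits and assembly factors, 3 of 12 rose and 5 fell, with a median of -0.09 (2 and 3 with DESeq2, 1 and 5 with gene length and GC offsets). The 3 that rose include MTOR, and the 5 that fell include RPTOR, AKT1S1 and DEPTOR, all described above. RICTOR, the scaffold of the second mTOR complex, had the highest log2 fold change (0.28, edgeR adjusted p = 0.000881). Its level went from 26.0 ± 2.05 to 31.7 ± 1.66 CPM (SD, n = 3 each). RICTOR passed with DESeq2 (adjusted p = 0.00259) and with gene length offsets (0.17, adjusted p = 0.0315). It did not pass with gene length and GC offsets (0.13, adjusted p = 0.0932). MLST8, a subunit of both complexes, was picked after its values were seen. It fell from 70.3 ± 3.13 to 56.9 ± 3.07 CPM (-0.31, adjusted p = 7.40e-06).

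Among the 5 TSC and RHEB genes, which include TSC1 and TSC2, 2 rose and none fell, with a median of 0.10. Each of the 2 calls was lost under an alternative, that of TSC1 with gene length offsets and that of RHEBL1 with DESeq2 (adjusted p = 0.129). RHEB was lowest, at 121 ± 7.15 and 125 ± 1.31 CPM (log2 fold change 0.04, adjusted p = 0.426), and RHEBL1, its paralog of low abundance, was highest at 0.32 (adjusted p = 0.0454). None of the 5 GATOR2 genes, the direct targets of sestrins, passed the test, with log2 fold changes from -0.09 (WDR24) to -0.01 (SEC13). At an unadjusted p under 0.05 the count was 0, with DESeq2 it was also 0, and with gene length and GC offsets 1 was called lower. Of the 7 genes of GATOR1, the GTPase-activating complex of the Rag proteins, and of KICSTOR, its lysosomal anchor, only NPRL3 fell (-0.22, adjusted p = 0.000353).

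Of the 12 genes of the Rag GTPases, Ragulator and folliculin, 2 rose and 4 fell, from RRAGB (-0.20, adjusted p = 0.0455) to FNIP1 (0.15, adjusted p = 0.00722), a partner of folliculin. With gene length offsets the counts were 0 and 3, and neither FNIP1 (0.07, adjusted p = 0.158) nor RRAGB (-0.17, adjusted p = 0.0999) passed. With DESeq2, RRAGB did not pass either (adjusted p = 0.128). Of 5 genes of amino acid sensors, 3 rose and none fell, and 2 rose with gene length offsets, without LARS (0.04, adjusted p = 0.252), the leucyl-tRNA synthetase gene, picked after its values were seen. The highest was GATSL3, the gene of the arginine sensor CASTOR1, at 9.33 to 9.89 CPM in control and up to 12.7 CPM in treated libraries, without overlap (log2 fold change 0.32, adjusted p = 0.00803), and SLC38A9, a lysosomal arginine transporter, was lowest at -0.03 (adjusted p = 0.756).

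Among 17 upstream kinase and phosphatase genes, of which 16 were tested, 5 rose and 1 fell (2 and 2 with gene length offsets). PIK3CA, the catalytic PI3K subunit, was highest (0.26, adjusted p = 0.000592) and AKT2 lowest, falling from 269 ± 6.58 to 231 ± 3.03 CPM (-0.22, adjusted p = 1.20e-06). Of 19 genes of mTORC1 substrates and effectors, 18 were tested, 1 rose and 2 fell (1 and 5 with gene length offsets). EIF4EBP1, the translational repressor that mTORC1 phosphorylates, fell from 108 ± 0.814 to 91.2 ± 1.09 CPM (-0.24, adjusted p = 4.56e-06), and its paralog EIF4EBP3, at 3.46 ± 0.176 CPM in control cells, had a log2 fold change of 0.39 (adjusted p = 0.0537). With gene length offsets EIF4EBP1 was at -0.13 (adjusted p = 0.0032), and EIF4EBP3 passed at 0.52 (adjusted p = 0.0105).

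**Figure D5:**
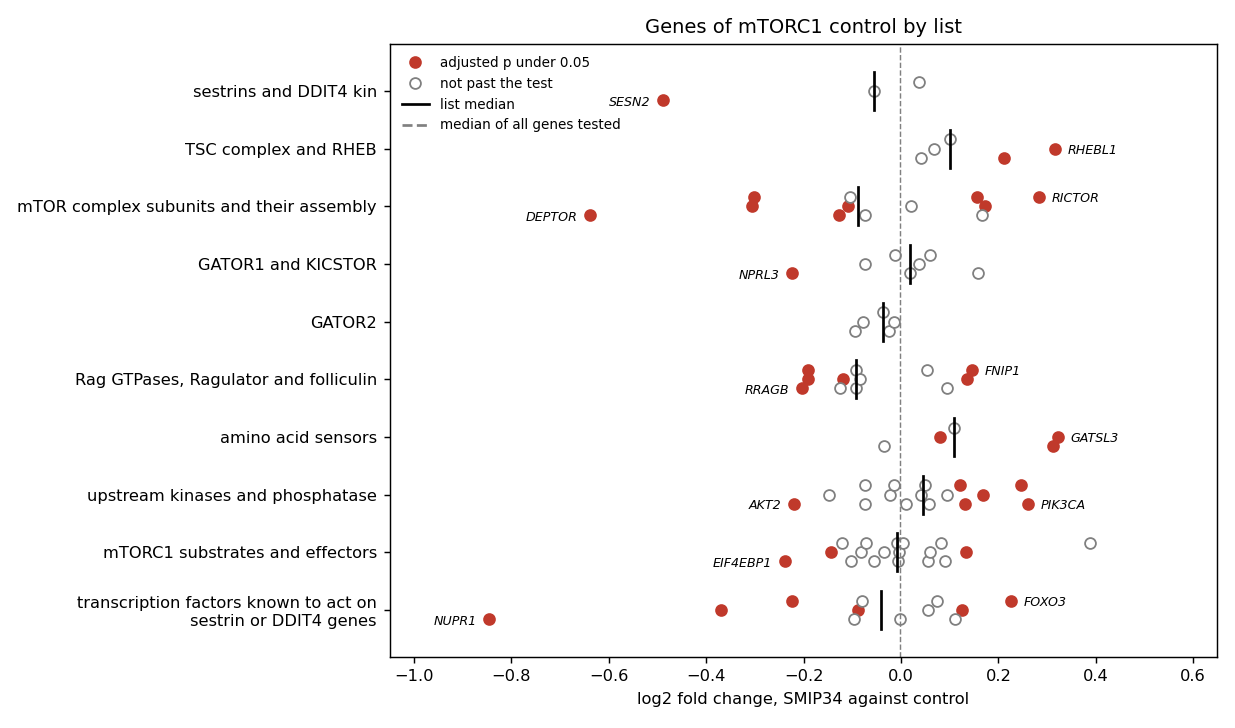
Log2 fold change (SMIP34 against control) of the tested genes of 10 lists of mTORC1 control, with filled points for an adjusted p-value under 0.05, open points for genes not past the test, gene names at the ends of a list where that gene passed the test, short black lines for list medians and a dashed line for the median of all genes tested. DEPTOR at -0.64, SESN2 at -0.49 and NUPR1 at -0.85 were the lowest.

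Of 12 transcription factor genes known to act on sestrin or DDIT4 genes or on their activators, 2 rose and 4 fell (0 and 6 with gene length offsets). NUPR1, a stress-induced chromatin protein that is itself a target of ATF4, was lowest, from 17.0 ± 0.628 to 9.46 ± 0.461 CPM (-0.85, adjusted p = 1.25e-08). FOXO3 was highest at 0.23 (adjusted p = 0.00553) and did not pass with gene length offsets (0.14, adjusted p = 0.0642). ATF4, which induces SESN2 under amino acid and endoplasmic reticulum stress and was picked after its values were seen, fell from 382 ± 3.84 to 296 ± 6.93 CPM (SD, n = 3 each; -0.37, edgeR adjusted p = 4.71e-11).

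Genes with a like pattern were sought for the 3 members with the largest absolute fold change, by the root mean square difference of their log2 CPM over the 6 libraries, each centred on its control mean, among 9910 genes whose mean reached 10 CPM. Nearest to DEPTOR were SLC7A5 (difference 0.054 on the log2 scale), the light chain of a leucine transporter, SLC1A4 (0.055), a transporter of neutral amino acids, and the transcription factor gene FOXC1 (0.063). Nearest to SESN2 were PTK6 (0.031), FRMD4A (0.043) and SH3TC2 (0.048), and nearest to AKT1S1 were MRPL15 (0.013), CTDSP1 (0.014) and TCTA (0.019). This measure is set mainly by the difference between the groups.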

How the data were processed

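RNA of 3 control and 3 SMIP34-treated samples of HEC-1-A cells was sequenced. The authors deposited estimated counts (fractional read counts per gene, not normalized), made per the file headers with featureCounts 1.5.0-p1 on exons of the UCSC hg19 annotation, by strand, with a minimum mapping quality of 2 and with reads of several places or genes divided into fractions. The submitters' processing notes name HISAT2, and the methods of the paper name tophat2 and HTSeq. Only TSC2 had exons touching another gene, PKD1, on the opposite strand, by 3 bases. Counts were rounded, filtered with filterByExpr, scaled by TMM and tested with edgeR 4.0.16 (R 4.3.3, newer quasi-likelihood method), with Benjamini-Hochberg adjustment over 13408 genes. Standard errors came from the F statistic, and the procedure was tested on simulated data. Alternatives were DESeq2 1.42.0, limma 3.58.1 (voom), other scalings and filters, unrounded values, the replicate number as a block, loess offsets (span 0.3) on gene length, and each library left out. Offsets that add GC content, from the GRCh37 sequence, were chosen after the data were seen. The members, lists and tests were chosen with earlier results of these data known. Genes named beside the members were the extremes of each list, those past the fold limit and the nearest in pattern; others are marked. Some list genes are not reported here.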

Additional observations from a re-analysis of the deposited data

How the results depend on the processing

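Over 19 alternative fits, the number of genes past the adjusted p-value lay between 3586 and 4706 (4645 in the edgeR fit above). The number past the fold limit as well lay between 318 and 464 (444 in that edgeR fit). All of these are counts of the re-analysis, not of the study. The median log2 fold change of all genes stayed within 0.1 of its value. SESN2, AKT1S1 and DEPTOR passed in all 19 fits, TSC1 and MTOR in 16 and RPTOR in 12, while SESN1, DDIT4 and TSC2 passed in none, so that between 4 and 6 of the 9 members were called. TSC1 and MTOR were lost under the 3 fits with gene length offsets. With gene length and GC offsets, the log2 fold changes of SESN1 and DDIT4 changed sign, to -0.0057 and 0.028, and so did that of SESN1 without control replicate 1 (-0.045) and without control replicate 3 (-0.038), over a range from -0.045 to 0.22 with a library left out. Without the filter, SESN3 had a log2 fold change of -0.70 (adjusted p = 0.566, edgeR).

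Of the other pathway genes, 16 were higher and 14 lower in the edgeR fit above. With gene length offsets 9 were higher, with gene length and GC offsets 8, and with upper quartile factors 22 were lower. With library size as the only scaling, 22 were higher and 10 lower, and with gene length offsets 19 were lower. With a library left out, between 12 and 18 were higher and between 9 and 17 were lower, the 9 without SMIP34 replicate 3; the cause was not tested. The log2 ratio of SESN2 to SESN3 differed between the groups by 0.17, and by -0.19 to 0.62 with a library left out, with the negative value without control replicate 1, and SESN3 had 2 to 5 counts a library.

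Replicate numbers are shared by the groups, but nothing says that they mark pairs. Deviations of libraries with the same number had correlations of -0.028, 0.033 and -0.011 across genes, and not every library correlated best with its own number. With the replicate number as a block, 4432 genes passed, 453 with the fold limit, 5 members were called, and RPTOR did not pass (adjusted p = 0.0627). With the block, gene length and GC offsets together, 9 other pathway genes were higher, SESN1 was at -0.00088, DDIT4 at 0.028, and 4 members were called. Depth limits SESN1 and SESN3 most.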
